A study of Mus musculus with 8 samples.

Results

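Transcript levels were compared between Rbp2-/- and Rbp2f/f mouse embryonic stem (ES) cells after 6 days in medium lacking leukemia inhibitory factor (LIF). The comparison set the 2 arrays of Rbp2-/- cells against the 2 arrays of Rbp2f/f cells, both without LIF, so 4 of the 8 arrays of the study carry it. By their genotype names, Rbp2f/f cells hold floxed copies of the gene and Rbp2-/- cells deleted ones. Whether one line was derived from the other is not stated in the labels. The other 4 arrays, 2 of each genotype kept with LIF, entered the fit and are used here only where the text says so. The labels call the 2 arrays of a group biological replicates and name neither the clones nor the cultures, and p-values here reflect only how these samples scatter, which may be technical. They also do not say which exons were removed, whether feeder cells were present or what sex the lines are.

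RBP2, encoded by the gene now named Kdm5a, is a histone demethylase that removes methyl groups from lysine 4 of histone H3, a mark of active promoters, and it was first described as a binding partner of the retinoblastoma protein. LIF keeps mouse ES cells in a self-renewing state through STAT3, and cells deprived of it leave that state and turn on genes of the early embryonic lineages. The comparison without LIF asks which transcripts differ between the Rbp2 genotypes in such differentiating cultures. Any other difference between the lines would enter it too. In a mixed culture, fewer cells of a type and less RNA per cell cannot be told apart.

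Signal was similar on the 4 arrays, with 2% trimmed means from 117.2 to 128.4, and the median difference over the 10916 genes tested was 0.02 on the log2 scale. Replicate 2 of Rbp2-/- lay closer to the Rbp2f/f arrays than replicate 1 did. Across genes, which are not independent replicates, it correlated at 0.978 and 0.962 with the Rbp2f/f arrays and at 0.972 with its own partner, whereas replicate 1 correlated with the Rbp2f/f arrays at 0.954 and 0.927. The Rbp2-/- arrays differed from each other by over 1 log2 unit in 279 genes, and the Rbp2f/f arrays in 93. Values from each Rbp2-/- array are therefore given throughout. As a check on the labelled cell type, 6 ES cell markers (Pou5f1, Sox2, Nanog, Zfp42, Dppa5a, Utf1) summed to 3790.3 and 3864 (Rbp2f/f) and to 3273 and 3166 (Rbp2-/-), below the 11828 to 19524 of the 4 arrays with LIF. Of the markers of other lineages, Afp (yolk sac endoderm) and Sox1 (neuroectoderm) read at most 4.0 on every array without LIF by their brightest probe sets. Others were well above that level. Sox17 (endoderm) read 154 and 107 (Rbp2f/f) against 29.9 and 58.3 (Rbp2-/-). Nes (neural) read 345 and 440 against 172 and 341, and Hand1 (mesoderm) 1111 and 491 against 3567 and 1868.5, in Rbp2f/f against Rbp2-/-.

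The targeted gene itself, Kdm5a, had a lower signal in Rbp2-/-. The brightest of its probe sets read 226 and 247 (Rbp2f/f) against 100 and 80.2 (Rbp2-/-). The groups did not overlap, 38.2% of the signal remained, and the difference was -1.25 ± 0.26 on the scale log2(intensity + 16), which is used for every difference below and understates the change of dim genes (SE from limma, n = 2 per group). This missed the threshold after adjustment (limma adjusted p = 0.091), and with the mean of all its probe sets the difference was -0.48 (limma adjusted p = 0.43). A second probe set read 188 and 188 against 76.3 and 82.9, and another 66.0 and 65.6 against 32.9 and 34.3, while the other 3 were dim, at or under 23 on each of the 4 arrays. The position of these probes with respect to the removed exons was not analysed here, which leaves the level of intact transcript unknown. The other tested members of the family, all H3 lysine 4 demethylases, were Kdm5b, which read 729 and 766 against 676 and 779, and Kdm5c, which read 252 and 252 against 257 and 297 in Rbp2f/f against Rbp2-/-. Their differences were -0.04 ± 0.30 and 0.12 ± 0.28, with limma adjusted p of 0.99 and 0.94. The genotypes overlapped for Kdm5b, and for Kdm5c the difference was smaller than its SE.

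Of 10916 genes, 3 passed an adjusted p under 0.05, which is 0.0275% of those tested: Grb10 fell (0.00916% called lower), and Sgce and Eif2s3y rose (0.0183% called higher). At an unadjusted p under 0.05 there were 1099 (10.1%), of which 463 (4.24%) were higher and 636 (5.83%) lower in Rbp2-/-. The arrays of the genotypes did not overlap for 3329 genes with higher signal in Rbp2-/- (30.5%) and 2512 with lower signal (23%). A difference of at least 1 log2 unit without overlap was met by 89 genes with higher signal (0.815%) and 206 with lower signal (1.89%). All counts of list members below are to be read against these shares. The 3 calls depended on the replicates: limma called 0 genes without replicate 1 of Rbp2-/-, 130 without its replicate 2, 45 without replicate 1 of Rbp2f/f and 1 on leaving out either of the Rbp2-/- arrays with LIF. After quantile normalization limma called 0, with 1553 at an unadjusted p under 0.05 and a smallest adjusted p of 0.11. A limma fit on only the 4 arrays without LIF called 2 genes, and of the 3 above only Sgce was among them. Grb10 and Eif2s3y were not called in that fit.

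Grb10 codes for an adaptor protein that dampens insulin receptor signalling, and it is an imprinted gene, expressed from the maternal copy in most tissues. It read 3249.8 and 2122 (Rbp2f/f) against 55.0 and 361 (Rbp2-/-). Both Rbp2-/- arrays lay far below the Rbp2f/f arrays, replicate 1 the furthest. The difference was -4.01 ± 0.56 (limma adjusted p = 0.023, n = 2 per group). Dimmer probe sets of the gene read 129 and 106 against 19.4 and 63.9, and 31.0 and 29.3 against 6.4 and 21.3, so they were lower too. Sgce, an imprinted gene for epsilon-sarcoglycan that is expressed from the paternal copy, read 133 and 133 (Rbp2f/f) against 595 and 544 (Rbp2-/-). Its replicates were close to each other in both genotypes, and the difference was 1.97 ± 0.28 (adjusted p = 0.023). A second Sgce probe set was dim, at or under 20.5 on the 4 arrays. Eif2s3y, a translation initiation factor gene on the Y chromosome, read 14.0 and 3.9 (Rbp2f/f) against 191 and 119 (Rbp2-/-). The Rbp2f/f arrays were near background and both Rbp2-/- arrays were not, with a difference of 2.77 ± 0.41 (adjusted p = 0.023). Uty, a second Y-linked gene, read 40.6 and 6.8 (Rbp2f/f) against 107 and 95.7 (Rbp2-/-), a difference of 1.71 ± 0.42 (adjusted p = 0.14). The same side was seen on the arrays with LIF, where Eif2s3y read 9.3 and 4.1 (Rbp2f/f) against 205 and 64.8 (Rbp2-/-). Whether the lines differ in their Y chromosome was not tested. Xist, the RNA that silences an X chromosome in female cells, read 29.9 and 30.2 against 39.2 and 44.3 without LIF, low in both genotypes.

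**Figure D1:**
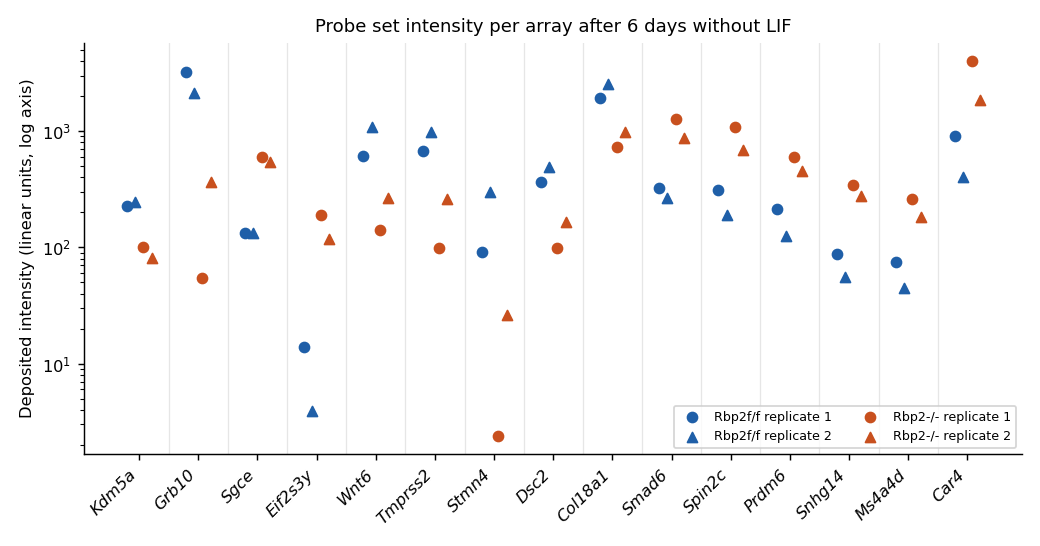
Deposited intensity (log axis) of 15 genes on the 4 arrays without LIF, with Rbp2f/f in blue, Rbp2-/- in orange, circles for replicate 1 and triangles for replicate 2. Blue and orange points are apart for each gene shown, since 14 of the 15 were picked for a difference without overlap. Grb10 lies at 3249.8 and 2122 in Rbp2f/f and at 55.0 and 361 in Rbp2-/-.

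The Grb10 promoter is shown because that gene had the largest difference. The hexamer CCGCCC has been reported as a sequence bound by the ARID domain of RBP2. The 250 bases before the upstream Grb10 start in RefSeq, build GRCm38.p6, at chr11:12037421-12037670 (minus strand), are printed 5′ to 3′ with each match of that hexamer on either strand in capitals.
Grb10: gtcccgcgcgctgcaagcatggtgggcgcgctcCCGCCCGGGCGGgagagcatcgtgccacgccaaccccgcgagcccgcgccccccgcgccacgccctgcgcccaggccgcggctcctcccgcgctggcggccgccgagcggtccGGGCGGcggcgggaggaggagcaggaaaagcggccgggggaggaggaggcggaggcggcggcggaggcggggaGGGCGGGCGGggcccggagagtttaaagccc
It held 5 matches, of which 2 adjoin on opposite strands, 2 overlap and 1 stands alone. Of 32851 promoters of the same length, 32.7% held at least 1 match and 8.47% held 3 or more, and the 250 bases before a second annotated Grb10 start held 0. A match is a description of the letters only. Sgce and Kdm5a had no entry among the promoters searched. The window of Smad6, a gene described below, held 4 matches.

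Grb10 and Sgce belong to the imprinted genes, which are expressed mainly from the copy inherited from one parent and many of which act on fetal growth. Of 51 listed, 44 were measured and 34 tested: 14 had a higher and 7 a lower signal at an unadjusted p under 0.05 (against 4.24% and 5.83% of all genes), and the 2 named above passed over all genes. The list median was 0.38, or 0.46 in replicate 1 and 0.53 in replicate 2, against 0.02 over all genes. Split by the copy that is usually expressed, a split made after the values were seen, 15 of 17 paternally expressed genes had a higher signal in Rbp2-/-, 11 of them at an unadjusted p under 0.05 and 1 lower at that level, with a median of 0.82. Of 15 maternally expressed genes, 8 had a lower signal, 6 at an unadjusted p under 0.05, and 3 were higher at that level, with a median of -0.12. No test was made of the split.

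Among the paternally expressed genes, Peg10, a retrotransposon-derived gene needed in the placenta that neighbours Sgce, read 468 and 476 (Rbp2f/f) against 1516 and 1342 (Rbp2-/-). Mest, a growth-related gene, read 3358 and 2670.3 (Rbp2f/f) against 7474 and 6076 (Rbp2-/-). Each pair of Rbp2-/- arrays lay far above the Rbp2f/f pair, with differences of 1.56 ± 0.43 and 1.17 ± 0.24 (limma adjusted p 0.18 and 0.091). The genes of the Prader-Willi region, silenced on the maternal chromosome, had higher signals as well. Snhg14, a long non-coding RNA that hosts small nucleolar RNAs, read 88.3 and 55.9 (Rbp2f/f) against 343 and 274 (Rbp2-/-). Magel2, which encodes a regulator of protein recycling, read 15.3 and 24.5 (Rbp2f/f) against 75.1 and 76.6 (Rbp2-/-). Beyond the genes named by rule, and chosen after their values were seen, Ndn, which encodes the growth suppressor necdin, read 273 and 259 (Rbp2f/f) against 566 and 584 (Rbp2-/-), and Snrpn 4.2 and 6.6 (Rbp2f/f) against 26.1 and 38.4 (Rbp2-/-). No array of one genotype reached into the other for these 4 genes, whose differences were 1.90 ± 0.35, 1.37 ± 0.28, 1.07 ± 0.25 and 1.16 ± 0.32 with adjusted p from 0.081 to 0.18. The Snrpn probe set was dim on each array without LIF. On the arrays with LIF the genotypes overlapped for Snhg14, Ndn and Snrpn (-0.52, 0.0 and -0.01), and Magel2 had the opposite sign (-0.89). Mkrn3, another gene of that region that was chosen after its values were seen, read 45.6 and 12.6 (Rbp2f/f) against 77.3 and 42.7 (Rbp2-/-), and its arrays overlapped (0.82 ± 0.38, adjusted p = 0.49). Usp29, transcribed from the Peg3 domain, read 47.8 and 42.1 (Rbp2f/f) against 148 and 141 (Rbp2-/-).

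On the maternal side, H13, which encodes a signal peptide peptidase, read 514 and 753 (Rbp2f/f) against 105 and 281 (Rbp2-/-). Igf2r, the receptor that clears IGF2, read 1131 and 876 (Rbp2f/f) against 334 and 611 (Rbp2-/-). In both cases the Rbp2-/- arrays lay below the Rbp2f/f arrays, with replicate 1 the lower, and the differences were -1.75 ± 0.36 (limma adjusted p = 0.091) and -1.11 ± 0.31 (adjusted p = 0.18). Cdkn1c, an inhibitor of cyclin-dependent kinases, read 1019.5 and 1156 (Rbp2f/f) against 19 and 925 (Rbp2-/-). Here the Rbp2-/- arrays disagreed, since replicate 2 stood close to Rbp2f/f, and the difference of -2.60 ± 0.92 had an adjusted p of 0.3. With LIF both Rbp2-/- arrays were low, at 88.2 and 148 against 706 and 493. The maternally expressed RNAs of the Dlk1-Dio3 domain had differences of the opposite sign. Rian read 258 and 17.6 (Rbp2f/f) against 490.0 and 401 (Rbp2-/-) and Meg3 468 and 45.1 (Rbp2f/f) against 538 and 499 (Rbp2-/-). The Rbp2f/f arrays differed widely for both, replicate 1 being close to Rbp2-/- and replicate 2 low, so the differences of 2.26 ± 0.80 and 1.64 ± 0.70 had adjusted p of 0.31 and 0.43. Replicate 2 of Rbp2f/f was also the lower one with LIF. There Rian read 163 and 9.4 (Rbp2f/f) against 248 and 375 (Rbp2-/-), and Meg3 296 and 65.5 (Rbp2f/f) against 206 and 180 (Rbp2-/-). Igf2, the growth factor, read 4706 and 3599 against 3984 and 3527, and its arrays overlapped; it was chosen after its values were seen.

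**Figure D2:**
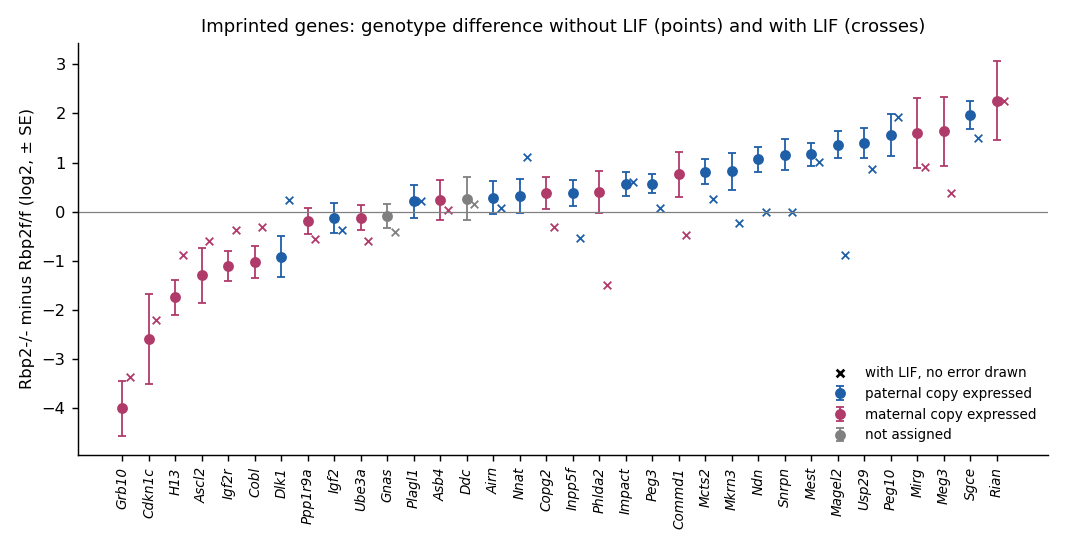
Rbp2-/- minus Rbp2f/f (log2, y axis) for the 34 tested imprinted genes: points with SE bars are the values without LIF, crosses those with LIF, and the colour gives the copy usually expressed. Maternally expressed genes occupy the low end, from Grb10 at -4.01 to Cobl at -1.03, and paternally expressed genes most of the high end, with the maternally expressed Rian, Meg3 and Mirg among them.

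Below the threshold, the genes that the arrays separated most clearly included regulators of signalling and cell surface proteins. Wnt6, a Wnt ligand of ectoderm and epithelium, read 607 and 1089 (Rbp2f/f) against 140.5 and 265 (Rbp2-/-). Tmprss2, a membrane serine protease of epithelia, read 679 and 979.8 (Rbp2f/f) against 98.6 and 259.7 (Rbp2-/-). Both were lower on each Rbp2-/- array, with differences of -1.98 ± 0.33 (limma adjusted p = 0.059) and -2.23 ± 0.39 (adjusted p = 0.063). Smad6, an inhibitor of BMP signalling, read 325 and 268 (Rbp2f/f) against 1263 and 868 (Rbp2-/-). Spin2c, a member of the spindlin family of histone readers, read 313 and 189.8 (Rbp2f/f) against 1073 and 692 (Rbp2-/-). Prdm6, a transcriptional repressor of the smooth muscle lineage, read 212 and 125 (Rbp2f/f) against 592 and 457 (Rbp2-/-). For these 3 genes both Rbp2-/- arrays were higher, by 1.77 ± 0.31, 1.75 ± 0.30 and 1.58 ± 0.28, with adjusted p of 0.063, 0.063 and 0.072. Stmn4, a stathmin that binds tubulin, read 90.3 and 297 (Rbp2f/f) against 2.4 and 26.2 (Rbp2-/-), low in Rbp2-/- and variable in both genotypes (-2.71 ± 0.53, adjusted p = 0.091). Ppm1h, a protein phosphatase, read 73.2 and 102 (Rbp2f/f) against 18 and 18.3 (Rbp2-/-), with close replicates in Rbp2-/- (-1.59 ± 0.30, adjusted p = 0.081). Col18a1, the collagen from which endostatin is cut, read 1906 and 2526 (Rbp2f/f) against 723 and 977 (Rbp2-/-), lower on both Rbp2-/- arrays (-1.37 ± 0.26, adjusted p = 0.081). Klhl6, a kelch family gene, read 209.5 and 187 against 35.3 and 78.3, and Mxd4, an antagonist of MYC, 105 and 132 against 29.0 and 26.0, in Rbp2f/f against Rbp2-/-, again with no overlap. Pold2, a subunit of DNA polymerase delta, read 461 and 260.3 against 1006 and 1118, and Has2, a hyaluronan synthase, 165 and 92.2 against 387 and 368, both higher on each Rbp2-/- array. Ms4a4d, a membrane protein of the MS4A family, read 74.9 and 44.3 against 261 and 181. Adjusted p was 0.091, 0.091, 0.091, 0.11 and 0.091 for these 5 genes.

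The genes of epithelial junctions, which hold sheets of cells together through tight junctions, adherens junctions and desmosomes, were lower in Rbp2-/-. All 37 tested of 42 listed had a negative difference, and 23 did so at an unadjusted p under 0.05 against 5.83% of all genes, with 0 passing over all genes. The Rbp2-/- arrays lay below both Rbp2f/f arrays for 33 of the 37. The list median was -1.03, but it was -1.49 in replicate 1 and -0.57 in replicate 2. Replicate 1 lay below both Rbp2f/f arrays for 37 members and replicate 2 for 33, against 4857 and 3095 of the 10916 genes. The 4 arrays followed a common order, since replicate 2 of Rbp2f/f was the highest for 35 of the 37 members and replicate 1 of Rbp2-/- the lowest for 36.

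Claudins, the strand-forming proteins of tight junctions, were among the members with the largest differences. Cldn4 read 834 and 1714 (Rbp2f/f) against 163 and 591 (Rbp2-/-), and Cldn3 read 502 and 862 (Rbp2f/f) against 156 and 275 (Rbp2-/-). Cgn, the tight junction scaffold cingulin, read 383 and 609.5 (Rbp2f/f) against 74.3 and 233 (Rbp2-/-). For each of these the 2 Rbp2-/- arrays were the lowest, with differences of -1.88 ± 0.45, -1.59 ± 0.35 and -1.74 ± 0.41 (limma adjusted p 0.14, 0.11 and 0.14). Dsc2, a desmosomal cadherin, read 364 and 489 (Rbp2f/f) against 99.1 and 167 (Rbp2-/-), the smallest p of the list (-1.59 ± 0.29, adjusted p = 0.08). St14, the membrane protease matriptase, read 852 and 1342 (Rbp2f/f) against 239 and 534 (Rbp2-/-), and Esrp2, a splicing factor of epithelial isoforms, 116 and 199 (Rbp2f/f) against 23.3 and 80.0 (Rbp2-/-). Their differences were -1.53 ± 0.35 and -1.46 ± 0.36, with replicate 1 again the lowest array. Cdh1, the adherens junction protein E-cadherin and a gene chosen after its value was seen, read 2150.4 and 3338 (Rbp2f/f) against 547 and 1724 (Rbp2-/-) (-1.45 ± 0.39, adjusted p = 0.17). The simple keratins of the list differed less, Krt18 reading 7868 and 8679.9 against 6239 and 7298 and Krt8 5774 and 7539 against 4703 and 5782 in Rbp2f/f against Rbp2-/-, also chosen after the values were seen. Perp, a desmosomal protein that is also a p53 target, read 1293 and 1879 (Rbp2f/f) against 455 and 843 (Rbp2-/-), and Sfn, an epithelial 14-3-3 protein outside the list, 739.8 and 1508 (Rbp2f/f) against 83.0 and 544 (Rbp2-/-), with differences of -1.31 ± 0.33 and -2.19 ± 0.56.

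**Figure D3:**
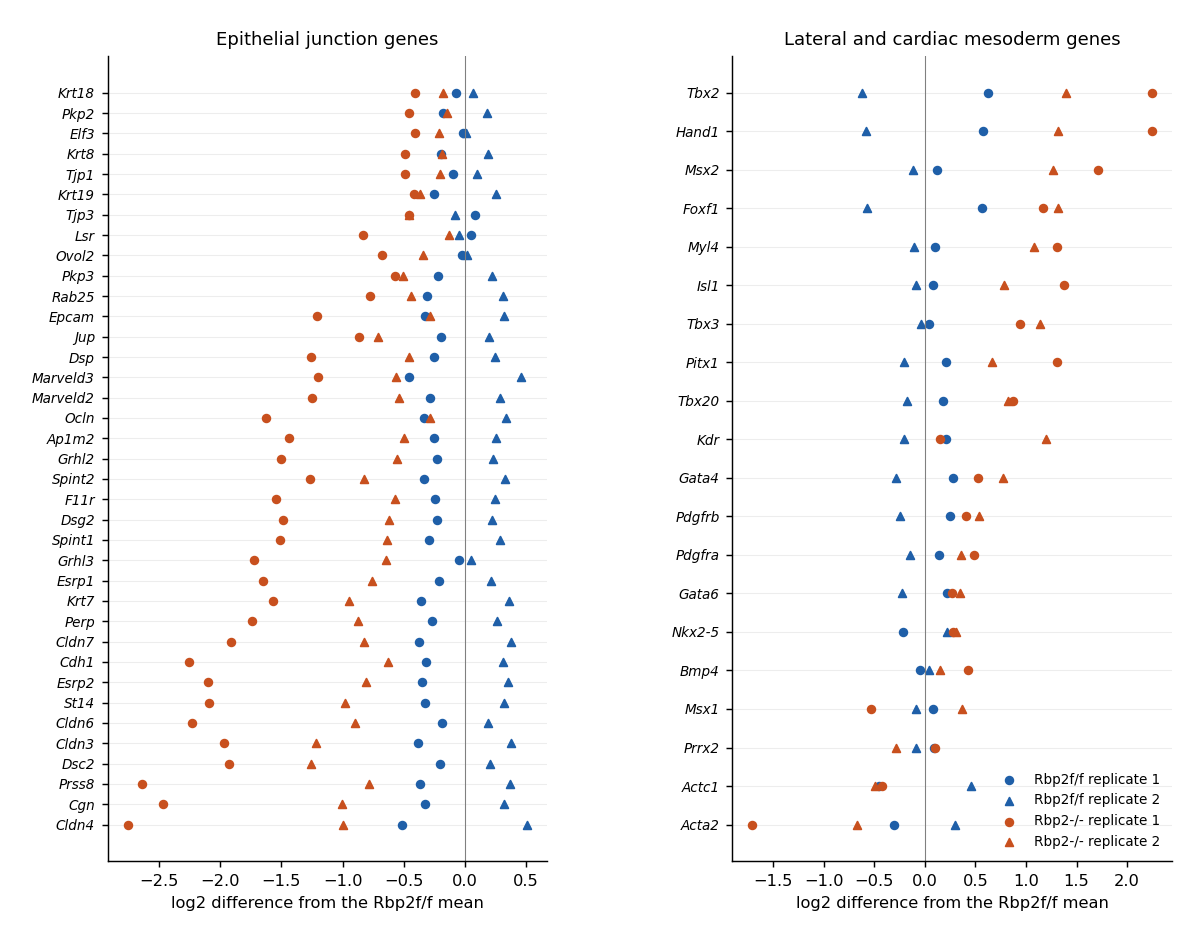
Log2 difference of each array without LIF from the Rbp2f/f mean (x axis) for the tested epithelial junction genes (left, 37) and lateral and cardiac mesoderm genes (right, 20), with Rbp2f/f in blue, Rbp2-/- in orange, circles for replicate 1 and triangles for replicate 2. Orange circles lie left of the orange triangles for 36 epithelial genes, and both orange points lie right of the blue ones for 15 mesoderm genes.

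Cytoskeletal targets of SRF and YAP, the factors that read actin tension, were mostly lower too. Of 26 tested, 10 were lower and 0 higher at an unadjusted p under 0.05, with a median of -0.52 (-0.84 in replicate 1 and -0.22 in replicate 2). Ccn2, a matricellular growth factor, read 887 and 1793 (Rbp2f/f) against 199 and 686 (Rbp2-/-), and Acta2, smooth muscle actin, 3859 and 5855 (Rbp2f/f) against 1446 and 2975 (Rbp2-/-). Both Rbp2-/- arrays were below both Rbp2f/f arrays, with differences of -1.72 ± 0.49 and -1.19 ± 0.45 (limma adjusted p 0.18 and 0.36). Ccn1, a relative of Ccn2, read 995 and 1796 (Rbp2f/f) against 402 and 1070.4 (Rbp2-/-), where replicate 2 of Rbp2-/- exceeded replicate 1 of Rbp2f/f. The muscle genes Acta1 (skeletal actin) and Myh7 (a slow myosin heavy chain) were low in Rbp2-/-. Acta1 read 819 and 2116 (Rbp2f/f) against 99.3 and 560.3 (Rbp2-/-), and Myh7 read 90.0 and 102 (Rbp2f/f) against 7.2 and 31.0 (Rbp2-/-), with differences of -2.37 ± 0.72 and -1.76 ± 0.37 and no overlap. Cntfr, the ciliary neurotrophic factor receptor, read 286 and 762 against 43.7 and 206, and Gpc4, a glypican, 958 and 1548 against 169.5 and 673 in Rbp2f/f against Rbp2-/-, both with replicate 1 of Rbp2-/- the lowest array.

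Most tested genes on the list of lateral and cardiac mesoderm, the tissue that forms heart, limb buds and body wall, were higher in Rbp2-/-. Of 20 tested members of 31 listed, 15 had both Rbp2-/- arrays above both Rbp2f/f arrays (against 30.5% of all genes) and 10 had a higher signal at an unadjusted p under 0.05 (against 4.24%), with 1 lower at that level and 0 passing over all genes. The median was 0.66, and it was of like size in both replicates, at 0.51 and 0.72. Hand1, a bHLH factor of heart, lateral mesoderm and extraembryonic tissue, read 1111 and 491 (Rbp2f/f) against 3567 and 1868 (Rbp2-/-), and a second probe set 239 and 77.2 against 1217 and 565. Msx2, a homeobox factor induced by BMP, read 553 and 467 (Rbp2f/f) against 1700.1 and 1245 (Rbp2-/-). Tbx2, a T-box repressor of the heart and limb, read 44.8 and 9.6 (Rbp2f/f) against 171 and 87.8 (Rbp2-/-). Each Rbp2-/- array was above the Rbp2f/f arrays for the 3 genes, with differences of 1.78 ± 0.52, 1.49 ± 0.33 and 1.82 ± 0.40 (limma adjusted p 0.2, 0.11 and 0.11). Foxf1, a forkhead factor of splanchnic mesoderm, read 233 and 96.8 (Rbp2f/f) against 360.2 and 401 (Rbp2-/-). Tbx3, a T-box factor that also takes part in naive pluripotency, read 275 and 259 (Rbp2f/f) against 529 and 607 (Rbp2-/-), and Myl4, an atrial myosin light chain, 56.6 and 46.9 (Rbp2f/f) against 151 and 127 (Rbp2-/-). These too were separated, by 1.24 ± 0.33, 1.04 ± 0.28 and 1.19 ± 0.37. The member lower at an unadjusted p under 0.05 was Acta2, given above with the SRF targets, a gene that both lists hold. The muscle genes Acta1 and Myh7, also given above and outside the mesoderm list, were lower in Rbp2-/- as well. Tnnt2, the cardiac troponin that marks heart muscle, was below the level tested, its brightest probe set reading at most 28.1 on the 4 arrays.

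BMP signalling patterns this mesoderm, and its inhibitors are also its targets. Smad6 was described above, and Bambi, a decoy receptor, read 346 and 231 (Rbp2f/f) against 905 and 554 (Rbp2-/-), higher on both Rbp2-/- arrays (1.28 ± 0.33, limma adjusted p = 0.16). The ligands Bmp7 and Bmp8b stood at 139 and 102 against 62.6 and 79.2 and 131 and 105 against 25.6 and 84.7 in Rbp2f/f against Rbp2-/-, and Id2, a BMP target, read 636 and 606 against 492 and 294. Over 29 tested genes of BMP and TGF-beta signalling the median was -0.10, with 2 higher and 3 lower at an unadjusted p under 0.05, so the members did not share a direction. Snai2, a repressor of epithelial genes in neural crest and mesoderm, read 271 and 89.9 (Rbp2f/f) against 972 and 322 (Rbp2-/-), above Rbp2f/f on both arrays (1.73 ± 0.47, adjusted p = 0.18), and Cdh11, a mesenchymal cadherin, 462 and 331 (Rbp2f/f) against 624 and 778 (Rbp2-/-) (0.81 ± 0.26). Among 24 tested mesenchymal genes 3 were higher and 4 lower at that level. On the lower side were Tgfbr2, a TGF-beta receptor, at 165 and 195 against 74.8 and 102, and Twist1, a bHLH factor of mesenchyme, at 218 and 196 against 106 and 132, in Rbp2f/f against Rbp2-/-.

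Genes of the primitive streak, through which cells enter gastrulation, had medians of opposite sign on the 2 Rbp2-/- arrays. At an unadjusted p under 0.05, 3 of 15 tested members were lower and 0 higher, and the median was -1.003 in replicate 1 and 0.20 in replicate 2. Eomes, a T-box factor of the streak, read 576 and 629.7 (Rbp2f/f) against 116 and 795 (Rbp2-/-), and Lhx1, a LIM homeobox factor of the anterior streak and node, 281 and 255 (Rbp2f/f) against 17.3 and 281 (Rbp2-/-). Replicate 1 was low and replicate 2 lay within or above the Rbp2f/f values, and the differences of -0.92 ± 0.54 and -1.51 ± 0.64 (limma adjusted p 0.65 and 0.42) rest on replicate 1. Nodal, the TGF-beta ligand that induces the streak, had the same form, at 346 and 536 (Rbp2f/f) against 89.6 and 538 (Rbp2-/-). Sp5, a Wnt target, read 433 and 426 (Rbp2f/f) against 64.2 and 335 (Rbp2-/-) and Foxa2, a node and endoderm factor, 137 and 115 (Rbp2f/f) against 54.8 and 80.1 (Rbp2-/-), where both Rbp2-/- arrays were the lower ones (-1.41 ± 0.53 and -0.78 ± 0.29). The genes of the formative epiblast, the stage before gastrulation, had medians of -0.81 in replicate 1 and 0.21 in replicate 2. Pou3f1, a POU factor of this stage, read 194 and 342 (Rbp2f/f) against 29.9 and 141 (Rbp2-/-), and Fgf5, a marker of the epiblast, 129 and 151 (Rbp2f/f) against 1.7 and 76.8 (Rbp2-/-). Both were low in each Rbp2-/- array and lowest in replicate 1, with differences of -1.69 ± 0.52 and -1.94 ± 0.59 (adjusted p 0.22 and 0.22). Otx2, a homeobox gene of the epiblast, read 159 and 95.4 against 20.9 and 129.9, and its arrays overlapped.

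**Figure D4:**
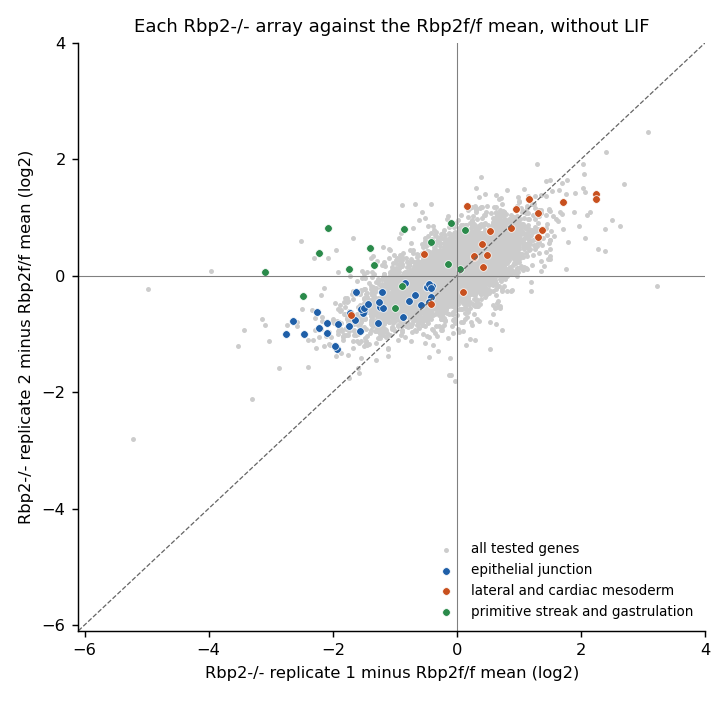
Difference of each Rbp2-/- array from the Rbp2f/f mean without LIF (log2), with replicate 1 on the x axis, replicate 2 on the y axis, the 10916 tested genes in grey and 3 lists in colour. Epithelial genes lie mostly below 0 on both axes and nearer to 0 on the y axis, mesoderm genes mostly above 0 on both, and streak genes mostly left of 0 with y values on both sides of 0.

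Naive pluripotency factors, which LIF sustains, were lower in Rbp2-/- on both arrays. Of 17 tested, 14 had both Rbp2-/- arrays below both Rbp2f/f arrays (23% of all genes), 6 at an unadjusted p under 0.05, and Tbx3 alone was higher at that level. The median was -0.58, with -0.28 and -0.51 in the replicates. Tfcp2l1 and Klf2, transcription factors of the naive network, read 91.1 and 110.1 (Rbp2f/f) against 30.6 and 51.0 (Rbp2-/-), and 182 and 126 (Rbp2f/f) against 62.1 and 80.9 (Rbp2-/-), differences of -1.06 ± 0.29 and -0.94 ± 0.31 (limma adjusted p 0.18 and 0.27). These levels were already well under those with LIF, where Rbp2f/f read 461 and 309.9 and 696 and 604. Klf4 read 143 and 157 against 87.8 and 101 and Esrrb 122 and 127 against 70.0 and 70.6 in Rbp2f/f against Rbp2-/-, although another probe set of Esrrb had the opposite sign. General ES cell markers were nearer to 0, with a median of -0.19 over 17 members and 0 at an unadjusted p under 0.05. Sox2, a core pluripotency factor, read 440.1 and 415 (Rbp2f/f) against 246 and 301 (Rbp2-/-) (-0.62 ± 0.33, adjusted p = 0.58), and Dppa5a 2409.5 and 2412 against 2246 and 1795. Among 17 genes of the LIF receptor and STAT3 pathway 1 was higher and 1 lower at that level, Tbx3 and Klf4, both also in the naive list. Jak1, the kinase of the LIF receptor complex, read 650.2 and 668 against 412 and 471 and Pim1, a STAT3-induced kinase, 312 and 499.6 against 184 and 339.

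FGF signalling drives ES cells out of the naive state, and its feedback inhibitors report its activity. The negative regulators Dusp5 and Dusp6, phosphatases of ERK, read 259.8 and 457 (Rbp2f/f) against 98.2 and 187 (Rbp2-/-), and 478 and 719 (Rbp2f/f) against 138 and 418 (Rbp2-/-). Spry1 and Spry4, inhibitors of receptor signalling, read 245 and 287 against 115 and 174 and 141 and 135 against 33.7 and 108 in Rbp2f/f against Rbp2-/-. All 4 were lower on both Rbp2-/- arrays, with differences from -1.25 to -0.83 and limma adjusted p from 0.2 to 0.36. In the whole list, 7 of 26 were lower and 1 higher at an unadjusted p under 0.05, but the median was -0.42 in replicate 1 and 0.01 in replicate 2. Replicate 2 lay above both Rbp2f/f arrays for 11 members and below both for 10. Fgfbp1, a carrier that releases FGF from the matrix, read 188 and 316 (Rbp2f/f) against 30.3 and 158 (Rbp2-/-), lower on both arrays (-1.54 ± 0.47). Immediate early genes, which growth signals and handling induce within minutes, were also lower, 5 of 18 at that level with medians of -0.83 and -0.23 in the replicates. Atf3, a stress-induced factor, read 199.8 and 245 (Rbp2f/f) against 47.6 and 108 (Rbp2-/-) (-1.42 ± 0.40), Btg2 979 and 1826 against 524 and 945 and Jund 1995 and 2995 against 1119 and 1822. Egr1, an early target of ERK, read 194 and 223 against 82.5 and 146, with no overlap between the genotypes.

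Wnt signalling genes showed no shared direction, 3 of 29 being higher and 4 lower at an unadjusted p under 0.05. Dkk1, a secreted Wnt antagonist, read 312 and 219 (Rbp2f/f) against 652 and 605 (Rbp2-/-), and Lgr5, a receptor for R-spondins, 78.2 and 69.6 (Rbp2f/f) against 149 and 169.7 (Rbp2-/-). They were higher on both Rbp2-/- arrays, by 1.21 ± 0.29 and 0.96 ± 0.26 (limma adjusted p 0.14 and 0.18). Besides Wnt6, the ligand Wnt7b and the receptor Fzd5 were lower, at 182 and 265 against 95.7 and 169 and 80.5 and 89.6 against 31.4 and 59.5 in Rbp2f/f against Rbp2-/-. Of the chemokine and growth factor receptors, Cxcr4, which guides migrating mesendoderm, read 181 and 124 (Rbp2f/f) against 316 and 388 (Rbp2-/-), higher on both Rbp2-/- arrays (1.14 ± 0.27, adjusted p = 0.13). Aplnr, the apelin receptor of early mesoderm, read 1154 and 892 (Rbp2f/f) against 385 and 836 (Rbp2-/-), and Met, the hepatocyte growth factor receptor, 67.0 and 100 (Rbp2f/f) against 23.8 and 53.6 (Rbp2-/-), lower on each Rbp2-/- array, replicate 1 the lowest. In that list 1 of 21 was higher and 3 lower at that level. Insulin and IGF pathway genes had 3 of 18 higher and 3 lower. Irs1, the insulin receptor substrate, read 626 and 625 (Rbp2f/f) against 214 and 402 (Rbp2-/-), while Igf2bp1, an RNA-binding protein of fetal tissue, read 1360.0 and 1225 (Rbp2f/f) against 2083 and 2104 (Rbp2-/-), with differences of -1.05 ± 0.38 and 0.69 ± 0.25. For retinoic acid, Aldh1a2, the enzyme that makes it in mesoderm, read 86.1 and 88.4 (Rbp2f/f) against 20.7 and 49.6 (Rbp2-/-) and Rdh10, the enzyme of the step before, 190.0 and 257 (Rbp2f/f) against 85.0 and 135 (Rbp2-/-), both lower on each Rbp2-/- array (-1.07 ± 0.34 and -0.94 ± 0.33), and 2 of 11 genes of the list were lower and 1 higher at that level.

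Other lineages gave smaller or mixed differences. Of 19 tested extraembryonic endoderm genes 6 were lower and 1 higher at an unadjusted p under 0.05, with a median of -0.51. Sox17, a factor of endoderm and early endothelium, read 154 and 107 (Rbp2f/f) against 29.9 and 58.3 (Rbp2-/-), and Plat, the tissue plasminogen activator of parietal endoderm, 184 and 229.8 (Rbp2f/f) against 58.9 and 103 (Rbp2-/-). Both Rbp2-/- arrays were lower, with differences of -1.31 ± 0.32 and -1.23 ± 0.32 (limma adjusted p 0.14 and 0.16). Gata4, which is shared with heart mesoderm, was the member with the opposite sign at that level, at 129 and 82.4 against 156 and 188. Among trophoblast genes 4 of 16 were lower and 3 higher. Krt7 read 274 and 461 against 109 and 177 and Plac1, a placental protein, 73.5 and 51.7 against 159 and 120.1. Neural progenitor genes were mostly dim, with 10 of 35 tested: Nes, an intermediate filament of progenitors, read 345 and 440.3 against 172 and 341, Stmn2, a neuronal stathmin, 808 and 1176 against 269 and 739 and Sox3, a SoxB1 factor, 57.9 and 55.3 against 109.8 and 123. Of 37 Hox genes 7 were tested, and Hoxb2 was the member with an unadjusted p under 0.05, reading 180.0 and 98.7 (Rbp2f/f) against 296 and 261 (Rbp2-/-) (0.97 ± 0.42). In the blood and endothelial list 1 of 16 was higher and 1 lower. Pecam1, an endothelial adhesion molecule, read 32.1 and 5.6 (Rbp2f/f) against 88.4 and 51.0 (Rbp2-/-), and embryonic globin Hbb-bh1 read 808.5 and 13.8 against 327 and 343, a gene chosen after its values were seen for which the Rbp2f/f arrays lay on both sides of Rbp2-/-.

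Markers of cells that could stand beside the ES cells were measured in the same arrays. Of 22 feeder fibroblast markers, 16 were tested, 4 were higher and 4 lower at an unadjusted p under 0.05, and the summed signal of the 22 was 6005.8 and 6809 (Rbp2f/f) against 6916 and 5249 (Rbp2-/-). Col1a1, a fibrillar collagen, read 515 and 539 (Rbp2f/f) against 2811 and 716 (Rbp2-/-), far brighter in replicate 1 of Rbp2-/- than on the other 3 arrays. Col3a1 read 411 and 446 (Rbp2f/f) against 148 and 179 (Rbp2-/-), and Cd248, a surface protein of stromal cells, 192 and 253 (Rbp2f/f) against 65.2 and 72.5 (Rbp2-/-), each lower on both Rbp2-/- arrays (-1.31 ± 0.34 and -1.48 ± 0.36). Dcn, a fibroblast proteoglycan, read 70.1 and 56.6 against 14.5 and 24.1, and Fap at most 11.7. The fibroblast markers had differences of both signs, and their part in the mesoderm and matrix values was not tested. The 13 macrophage markers summed to 222.0 and 463 (Rbp2f/f) against 385 and 330.3 (Rbp2-/-), with Ptprc, the pan-leukocyte antigen, at or under 4.4. In the matrix list, 5 of 30 were higher and 4 lower, among them Col11a1, a fibrillar collagen of cartilage, at 194 and 318 against 62.6 and 115 and Lama4, a vascular laminin chain, at 42.2 and 5.7 against 123 and 48.1, in Rbp2f/f against Rbp2-/-.

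Genes of cell division were slightly higher in Rbp2-/-, and several CDK inhibitors lower. Of 33 mitosis genes 29 had both Rbp2-/- arrays above both Rbp2f/f arrays (30.5% of all genes), 8 at an unadjusted p under 0.05 and 0 lower, with medians of 0.56 and 0.40 in the replicates. Mad2l1, a spindle checkpoint protein, read 910.2 and 852 (Rbp2f/f) against 2012 and 1422 (Rbp2-/-), and Ccna2, cyclin A2, 1244 and 1058 (Rbp2f/f) against 1917 and 1932 (Rbp2-/-), differences of 0.93 ± 0.29 and 0.74 ± 0.24 (limma adjusted p 0.23 and 0.26). Of 34 genes of DNA replication controlled by E2F, which the retinoblastoma protein restrains, 24 did not overlap upward and 7 had an unadjusted p under 0.05. Mcm2, a subunit of the replicative helicase, read 1124 and 1142 (Rbp2f/f) against 1850.3 and 2126 (Rbp2-/-), and Cdt1, a licensing factor, 1055 and 869 (Rbp2f/f) against 1543 and 1489 (Rbp2-/-) (0.80 ± 0.27 and 0.65 ± 0.22). Among 15 CDK inhibitors and pocket proteins 7 were lower and 0 higher at that level, with a median of -0.54 in replicate 1 and -0.09 in replicate 2. The lower ones include Cdk6 and Ccnd2, which drive the cycle, the latter chosen after its value was seen, at 204 and 198 against 82.8 and 166 and 1030.5 and 1206 against 527 and 802. Cdkn1a, the p53-induced inhibitor p21, read 1489 and 2302 (Rbp2f/f) against 946 and 1151 (Rbp2-/-), and Cdkn2b 284 and 539 (Rbp2f/f) against 150.2 and 195 (Rbp2-/-). Rb1, the retinoblastoma gene itself, read 152 and 194 (Rbp2f/f) against 95.9 and 110.3 (Rbp2-/-), lower on each Rbp2-/- array (-0.66 ± 0.26, adjusted p = 0.37). In both media Rb1 stood on the same side, reading 141 and 114 against 71.9 and 73.1 with LIF.

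Targets of p53 were lower as well, 18 of 25 having both Rbp2-/- arrays below both Rbp2f/f arrays and 9 an unadjusted p under 0.05, against 1 higher. Medians were -0.50 and -0.37 in the replicates. Plk2, a stress-induced kinase, read 1183 and 2044 (Rbp2f/f) against 521 and 892 (Rbp2-/-), and Pmaip1, the pro-apoptotic protein NOXA, 1015 and 1362 (Rbp2f/f) against 389 and 763 (Rbp2-/-). The differences were -1.17 ± 0.36 and -1.08 ± 0.33 (limma adjusted p 0.23 and 0.22). Eda2r, a death-domain receptor, read 229 and 303 against 132 and 168. The list shares Cdkn1a and Rb1 with the cell cycle inhibitors and Perp with the junction genes. Of 27 MYC family and ribosome biogenesis genes 1 was higher and 1 lower at that level, Pes1, a nucleolar factor whose probe sets disagreed in sign, at 474 and 338 against 665 and 1036, and Mxd4. Of 19 ribosomal protein genes 15 had both Rbp2-/- arrays above both Rbp2f/f arrays (30.5% of all genes), but the median was small, at 0.12 (0.02 after quantile normalization), and limma gave 0 at an unadjusted p under 0.05.

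Glycolytic and hypoxia-induced genes were higher in Rbp2-/-, with replicate 1 above replicate 2. Of 36 tested, 26 had both Rbp2-/- arrays above both Rbp2f/f arrays, 8 at an unadjusted p under 0.05 and 0 lower, and the medians were 0.53 and 0.18 in the replicates. The promoters of Slc16a3, a lactate exporter, and Bnip3, a mitophagy receptor induced by hypoxia and chosen after its values were seen, are printed as examples of the list. The capitals mark the core letters ACGTG and GCGTG of the hypoxia response element on either strand, in the 250 bases before the RefSeq start, build GRCm38.p6, at chr11:120948817-120949066 (plus strand) and chr7:138909507-138909756 (minus strand).
Slc16a3: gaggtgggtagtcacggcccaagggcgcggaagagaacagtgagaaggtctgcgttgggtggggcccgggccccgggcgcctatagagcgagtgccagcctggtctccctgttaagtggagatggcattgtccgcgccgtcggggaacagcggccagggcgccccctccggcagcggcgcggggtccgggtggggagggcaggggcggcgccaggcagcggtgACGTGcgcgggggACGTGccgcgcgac
Bnip3: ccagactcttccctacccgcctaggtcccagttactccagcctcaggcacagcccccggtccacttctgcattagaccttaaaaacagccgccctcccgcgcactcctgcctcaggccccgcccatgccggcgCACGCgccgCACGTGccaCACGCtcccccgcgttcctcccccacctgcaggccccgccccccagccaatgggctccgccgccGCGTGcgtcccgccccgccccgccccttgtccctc
The Slc16a3 window held 2 matches and the Bnip3 window 5, of which a pair overlap on opposite strands. Of the 33 tested members with a promoter entry, 26 held at least 1 match, against 38.6% of 32851 promoters. The list was counted at 1 window per gene, whereas the 32851 include further starts of some genes and are not limited to tested genes. The 2 shares are therefore not matched. The windows of Tpi1 and the first listed Vegfa start held 0. These letters do not show binding.

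Slc16a3 read 600.3 and 429 (Rbp2f/f) against 2305 and 1094 (Rbp2-/-). Bnip3 read 205 and 211 (Rbp2f/f) against 1148 and 375 (Rbp2-/-). Egln3, the oxygen-sensing prolyl hydroxylase that hypoxia induces, read 113 and 105 (Rbp2f/f) against 518 and 241 (Rbp2-/-). In all 3 the Rbp2-/- arrays were above Rbp2f/f and replicate 1 was the highest, with differences of 1.62 ± 0.50, 1.59 ± 0.64 and 1.57 ± 0.38 (limma adjusted p 0.23, 0.4 and 0.14). Of the glycolytic enzymes, Aldoc read 85.0 and 78.3 (Rbp2f/f) against 389.5 and 136 (Rbp2-/-) and Tpi1 1879 and 1779.5 (Rbp2f/f) against 4296 and 3096 (Rbp2-/-), and Ldha, which makes lactate, 5284 and 4535 (Rbp2f/f) against 7279 and 6703 (Rbp2-/-). Each pair lay above the Rbp2f/f pair, by 1.35 ± 0.37, 0.99 ± 0.31 and 0.51 ± 0.18. Vegfa, the angiogenic factor, read 77.2 and 39.2 (Rbp2f/f) against 125 and 149 (Rbp2-/-), again without overlap (1.09 ± 0.33, adjusted p = 0.22). With LIF the arrays of Egln3 overlapped, reading 122 and 222 (Rbp2f/f) against 144 and 74.1 (Rbp2-/-), and the difference between media in the genotype effect was 2.16 ± 0.53 (adjusted p = 0.32). An array with LIF, replicate 2 of Rbp2-/-, was dim, with a 2% trimmed mean of 77.5, and the median difference of all genes with LIF was -0.28.

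Cholesterol and fatty acid synthesis genes were also higher, with a median of 0.40 (0.38 and 0.39 in the replicates) and 23 of 28 above Rbp2f/f on both arrays, and 3 higher and 1 lower at an unadjusted p under 0.05. Insig1, a sterol-sensing regulator, read 252 and 167 (Rbp2f/f) against 422 and 356 (Rbp2-/-), and Scd1, a fatty acid desaturase, 517 and 458 (Rbp2f/f) against 855 and 763 (Rbp2-/-) (0.87 ± 0.32 and 0.71 ± 0.31), whereas Hsd17b7, a sterol synthesis enzyme, read 194 and 277 against 92.7 and 152. Respiratory chain genes had a median of 0.18 over 42 members. Of these 2 were higher at that level, a share near the 4.24% of all genes. Ndufa9, a complex I subunit, read 963 and 929 (Rbp2f/f) against 1856 and 1536 (Rbp2-/-). Of 35 ATF4-controlled and amino acid genes 4 were higher and 2 lower. Mthfd2, a mitochondrial folate enzyme, read 207 and 172 (Rbp2f/f) against 435 and 513 (Rbp2-/-), and Bcat1, a branched-chain aminotransferase, 291 and 311 (Rbp2f/f) against 518 and 652 (Rbp2-/-), higher on both Rbp2-/- arrays (1.26 ± 0.37 and 0.91 ± 0.26, limma adjusted p 0.2 and 0.18). Among carbonic anhydrases, which interconvert carbon dioxide and bicarbonate, Car4 read 906 and 399 (Rbp2f/f) against 3969.7 and 1831 (Rbp2-/-) and Car3 257 and 306 (Rbp2f/f) against 124 and 172 (Rbp2-/-). The first was higher and the second lower on both Rbp2-/- arrays, with differences of 2.13 ± 0.47 (adjusted p = 0.11) and -0.87 ± 0.26 (adjusted p = 0.2), and a second Car4 probe set read 867 and 379 against 3997 and 1855. Selenium- and glutathione-dependent Gpx4, which guards membranes from lipid oxidation, read 2407 and 2332 against 1575 and 1597, and Hspb1, a small heat shock protein, 5124 and 7169 against 2000.0 and 4190.5, in Rbp2f/f against Rbp2-/-, with differences of -0.57 ± 0.22 and -1.06 ± 0.27.

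Metallothioneins bind zinc and are induced by it through the factor MTF1, as is the zinc exporter Slc30a1. The 3 genes were the members of the zinc list with the smallest p, and their promoters are printed to show the core letters of the metal response element, TGCACNC and TGCGCNC on either strand, in capitals. The windows are the 250 bases before the RefSeq start, build GRCm38.p6, at chr8:94178839-94179088 (plus strand), chr8:94172368-94172617 (plus strand) and chr1:191906531-191906780 (plus strand).
Mt1: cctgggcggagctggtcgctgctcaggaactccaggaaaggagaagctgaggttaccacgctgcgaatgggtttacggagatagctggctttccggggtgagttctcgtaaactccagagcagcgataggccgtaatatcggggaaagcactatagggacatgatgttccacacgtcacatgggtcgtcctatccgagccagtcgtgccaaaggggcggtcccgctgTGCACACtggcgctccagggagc
Mt2: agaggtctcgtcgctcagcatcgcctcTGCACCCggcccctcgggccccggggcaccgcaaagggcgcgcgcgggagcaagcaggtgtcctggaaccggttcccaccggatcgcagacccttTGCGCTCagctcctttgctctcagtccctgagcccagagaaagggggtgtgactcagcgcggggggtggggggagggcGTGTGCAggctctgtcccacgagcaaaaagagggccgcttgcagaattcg
Slc30a1: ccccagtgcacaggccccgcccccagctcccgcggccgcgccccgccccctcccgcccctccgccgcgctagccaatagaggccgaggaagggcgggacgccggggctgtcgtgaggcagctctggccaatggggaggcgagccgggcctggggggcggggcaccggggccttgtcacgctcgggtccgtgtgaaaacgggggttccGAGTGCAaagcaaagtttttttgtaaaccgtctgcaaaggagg
The Mt2 window held 3 matches and the other windows 1 each, and letters outside these windows were not searched. At least 1 match was present in 21.4% of 32851 promoters and in 6 of the 13 tested zinc genes with an entry, counted at 1 window per gene. Of the 32851, which are not limited to tested genes, 1.26% held 3 or more.

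Mt1 read 1021 and 1569 (Rbp2f/f) against 417 and 703 (Rbp2-/-). Mt2 read 1671 and 2302 (Rbp2f/f) against 738 and 1223 (Rbp2-/-). Slc30a1 read 74.9 and 73.8 (Rbp2f/f) against 8.1 and 36.0 (Rbp2-/-). All 3 were lower on both Rbp2-/- arrays, replicate 1 the lowest, with differences of -1.20 ± 0.28, -1.03 ± 0.26 and -1.35 ± 0.33 (limma adjusted p 0.12, 0.15 and 0.14). Over the 16 tested zinc genes 4 were lower and 0 higher at an unadjusted p under 0.05, and the median of -0.08 was near that of all genes. The fourth was Slc39a8, a zinc importer, which read 229.8 and 193 (Rbp2f/f) against 82.6 and 163 (Rbp2-/-). Slc39a14, another importer, read 57.8 and 67.1 against 76.7 and 108, and Mt3, a metallothionein of brain, 1.9 and 3.6 against 31.7 and 3.9, where replicate 2 of Rbp2-/- stood with Rbp2f/f.

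Genes of chromatin complexes had few members past an unadjusted p under 0.05. Of 22 tested writers and erasers of H3 lysine 4 methylation, 1 was lower and 0 higher at an unadjusted p under 0.05. Setd7, a lysine methyltransferase, read 568 and 776 (Rbp2f/f) against 275 and 464 (Rbp2-/-) (-0.86 ± 0.31), though another of its probe sets had the opposite sign. Polycomb genes had 3 of 25 higher and 0 lower. Ezh2, the H3 lysine 27 methyltransferase, read 936 and 827 (Rbp2f/f) against 1406 and 1467 (Rbp2-/-), and its relative Ezh1 57.9 and 63.9 (Rbp2f/f) against 163 and 81.7 (Rbp2-/-), above Rbp2f/f on both arrays (0.70 ± 0.23 and 0.78 ± 0.35, limma adjusted p 0.28 and 0.47). In the lists of DNA methylation (12 tested) and of NuRD, Sin3 and histone deacetylase partners (22 tested) 0 genes had an unadjusted p under 0.05. Tet2, a DNA demethylase, read 61.0 and 55.0 against 30.9 and 41.3, and Sap30, a Sin3 subunit, 338 and 304 against 420.1 and 504. Interferon-induced and antigen presentation genes had a median of -0.25 with 2 of 26 lower and 0 higher, Ly6e reading 677 and 949.9 against 286 and 528 and Xaf1 64.3 and 61.8 against 26.9 and 24.5. Lysosomal genes had 2 of 18 lower, the cathepsin Ctsb at 1636 and 2075 against 1165 and 1274 and Tfeb, the lysosomal master regulator, at 82.6 and 119 against 29.4 and 78.4. Germline genes, of which 11 of 27 were tested, had 0 at that level.

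**Figure D5:**
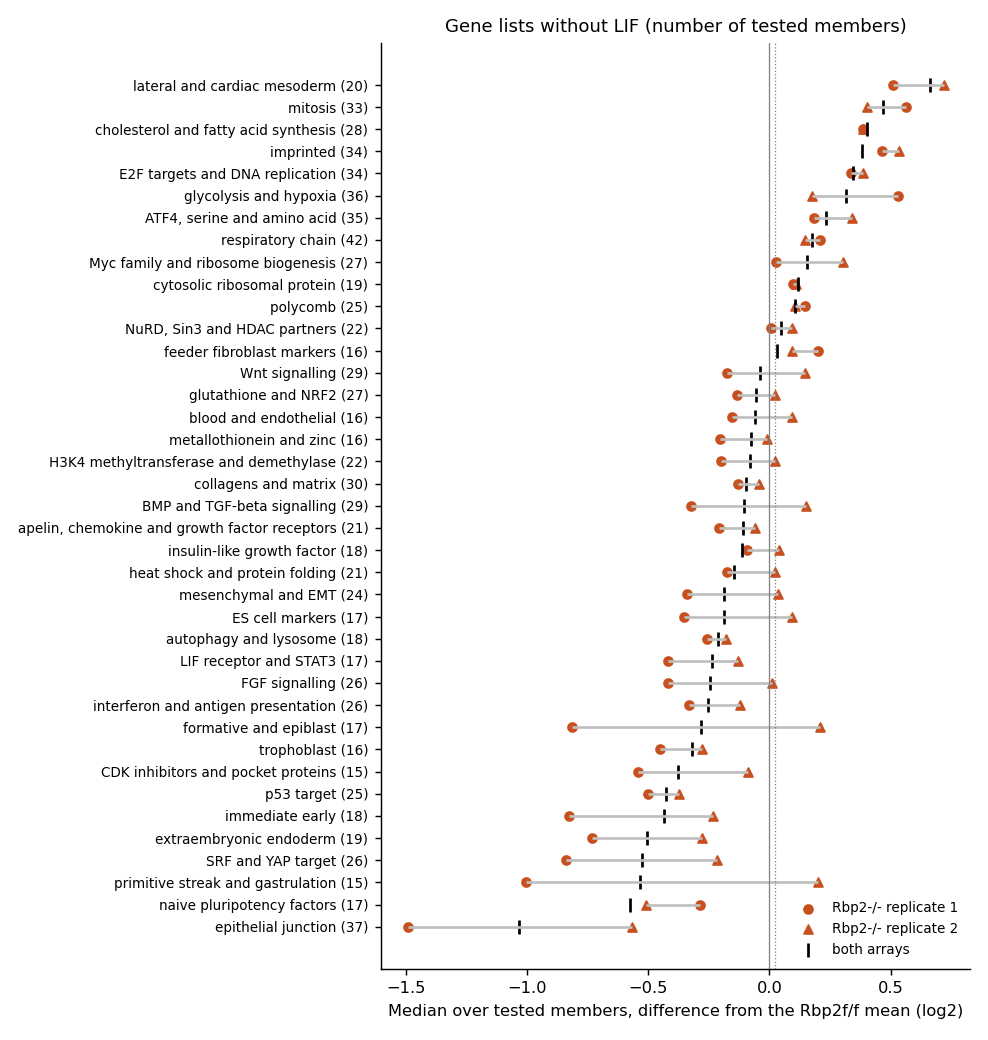
Median difference from the Rbp2f/f mean (log2, x axis) over the tested members of each list with 15 or more, for replicate 1 (circles) and replicate 2 (triangles) of Rbp2-/- and for both arrays together (bars), with the median of all genes as a dotted line. The medians run from -1.03 for epithelial junction genes to 0.66 for lateral and cardiac mesoderm, and the replicates lie furthest apart for the streak and formative lists.

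The same contrast was made on the 4 arrays with LIF, where 28 genes passed (0.257%). It shares no array with the one described, but the labels do not say whether the same lines were used in both media. Agreement between the media may therefore not be independent, which was not tested. Of the 89 genes that were higher without LIF by at least 1 log2 unit and without overlap, 62 lay above the all-gene median of -0.28 with LIF and 27 below it, and of the 206 lower ones 124 lay below it and 82 above. Across genes, which are not independent replicates, the genotype differences with and without LIF correlated at 0.154. Grb10, Sgce and Eif2s3y had the same sign, with differences of -3.38, 1.51 and 2.57 with LIF. Peg10 and Mest did too, at 1.93 and 1.001. Smad6 and Cxcr4 were near 0 with LIF (-0.005 and -0.002). Magel2 was on the other side, reading 51.3 and 52.7 (Rbp2f/f) against 20.8 and 20.7 (Rbp2-/-) with LIF, as was Car4, at 297 and 642 (Rbp2f/f) against 267 and 127 (Rbp2-/-). A direct test of whether the genotype effect differed between media called 0 of 10916 genes (0%), with 1266 at an unadjusted p under 0.05 and a smallest limma adjusted p of 0.25, so none of these differences between media passed. Without replicate 1 of Rbp2-/- with LIF the call was 1430 genes, without replicate 2 of Rbp2-/- without LIF 11, and without replicate 1 of Rbp2f/f without LIF 3. For Magel2 that difference was 2.25 ± 0.39, for Car3 -2.02 ± 0.36 and for Spin2c 2.18 ± 0.43, all at an adjusted p of 0.25.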

How the data were processed

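Biotin-labelled RNA from 8 ES cell samples, 2 per genotype and medium, had been hybridised to Affymetrix GeneChip mouse arrays, per the labels. The authors deposited linear intensity values per probe set; how probes were summarised or arrays scaled is not given in the sources used here. Of 45101 probe sets, 34945 carried 1 gene symbol in GEO's platform annotation, 932 several and 9160 none, and 64 were manufacturer controls. From these, log2(intensity + 16) was computed. Each of 18193 genes was represented by its brightest probe set over the 8 arrays, and genes whose mean reached the 40th percentile, 10916 in all, entered the test. limma 3.58.1 in R 4.3.3 (lmFit on 4 groups, eBayes with trend, Benjamini-Hochberg, adjusted p under 0.05) gave differences and SEs, with 4 residual degrees of freedom. The fit was tested on 10 simulated data sets with 200 genes changed without LIF. It called 17.2% of the changes of 1 log2 unit and 79% of those of 2, so many smaller changes would be missed. Precision is limited by 2 arrays per group. Replicate numbers were not used as a block, since the deviations of same-numbered arrays of the 2 genotypes correlated at 0.248 without LIF and -0.083 with LIF. Pairing of the arrays of a genotype across media was not examined. Members, gene lists and tests were chosen with earlier results of these data known. Named by rule were Kdm5a, every called gene, the 15 largest and the 15 most clearly separated non-overlapping differences in each direction, and for each list the 6 tested members of smallest p, or all where 8 or fewer were tested. Promoters are the 250 bases before RefSeq starts. Alternatives covered normalization, pseudocount, filter, probe sets, variance model, threshold, arrays in the fit, the block and each array left out.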

Additional observations from a re-analysis of the deposited data

How the results depend on the processing

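The count of 3 genes called by limma without LIF varied widely with the settings. It was 0 after quantile normalization, median centring, 2% trimmed mean scaling, with no filter on dim genes or with the mean of probe sets, 5 with robust eBayes, 6 with the filter at the 60th percentile, 30 at an adjusted p under 0.10, 54 with a pseudocount of 64 and 487 with array weights. Leaving out each array in turn gave 0 to 130 genes; the lower end, without replicate 1 of Rbp2-/- without LIF, had 375 genes at an unadjusted p under 0.05. With the replicate block, which the labels do not show to pair the samples, 149 genes passed. With only the 4 arrays without LIF in the fit, 2 genes passed, Sgce among them and Grb10 and Eif2s3y not. For the difference of genotype effects between media (0 genes), the mean of probe sets gave 1, the replicate block 10, and leaving out single arrays 0 to 1430. Kdm5a passed at an adjusted p under 0.10 (-1.25), with array weights (-1.25, adjusted p = 0.0092), a pseudocount of 64 (-0.96, adjusted p = 0.041) and the replicate block (-1.25, adjusted p = 0.023), and was smaller with the mean of probe sets (-0.48, adjusted p = 0.43). Kdm5b had the opposite sign with the mean of probe sets (0.24), as had Utf1 (0.032). With single arrays left out, these ranges crossed 0: Eomes -2.22 to 0.39, Lhx1 -3.09 to 0.065, Nodal -2.08 to 0.31, Otx2 -1.92 to 0.064, Kdm5b -0.14 to 0.059, Igf2 -0.33 to 0.059, Hbb-bh1 -1.23 to 3.56, Pou5f1 -0.46 to 0.30 and Utf1 -0.46 to 0.39. The causes were not tested. The medians of the epithelial junction, lateral and cardiac mesoderm, imprinted, glycolysis, mitosis, E2F, p53 and naive lists had the same sign in all 18 alternatives, while those of the streak (0.20), formative (0.21), ES marker (0.09), FGF (0.01), BMP (0.15), Wnt (0.14) and mesenchymal (0.04) lists were positive without replicate 1 of Rbp2-/-. Values near the array's background carry the least precise differences.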
